A study of Mus musculus with 18 samples.

Results

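Pdcd1, Lag3, Tigit, Havcr2, Cd160 and Cd244a encode PD-1, LAG-3, TIGIT, TIM-3, CD160 and 2B4, the inhibitory receptors most often used to recognise exhausted CD8+ T cells. These 6 genes were taken by name from the 45706 genes listed for each library, and all 6 passed the filter on low counts. RNA-seq had been run on 18 libraries of purified CD8+ T cells. The donors were OT-I mice, whose transgenic T cell receptor recognises an ovalbumin peptide, and the strain was entered as WT for every library. Cells were cultured with IL-7 and IL-15, and were given the peptide either daily for 5 days (repeat peptide) or once, followed by a wash (single peptide). From day 5 to day 8 they were kept with DMSO, the solvent, or with 1 µM ibrutinib, a covalent inhibitor of the kinase BTK. The authors state that the peptide stayed in the medium of repeat peptide cells over these days. There were 4 repeat DMSO, 5 repeat ibrutinib, 5 single DMSO and 4 single ibrutinib libraries.

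The genotype field held entries that read like names of experiments, and libraries with the same entry are called here experiments A to F. Experiments A to D each had 1 library of every group, E had only a repeat ibrutinib library and F only a single DMSO library. The entries of B, C, D and E contain the letters BTK KO although the strain is given as WT. Btk itself could not check this, since its expected counts were low in all groups. They were 8 to 27 in repeat DMSO, 0 to 11 in repeat ibrutinib, 0 in single DMSO and 0 to 2 in single ibrutinib libraries. The labels do not say that libraries came from separate animals, so p-values measure the spread between these libraries, part of which may be technical. Libraries held between 23445922 and 51995372 expected counts. The labelled cell type was checked against its markers: the 7 CD8 T cell markers summed to 2616 to 3574 TPM (a level scaled by transcript length and to the same total in each library) in every library, while the summed NK, B, myeloid and dendritic cell markers reached at most 26.0, 7.10, 8.95 and 4.33 TPM. Of single markers of these other cells, Klrb1c (25.2 TPM), Cd79b (7.08), Lyz2 (5.92) and Itgax (4.08) reached the most in any library. S100a8 reached 3.88, Cd14 2.92, Zbtb46 2.31 and Ncr1 1.16 TPM. Among the lowest were Ms4a1, Pax5, Adgre1, Csf1r, Clec9a and Siglech, at most 0.09 TPM.

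Inhibitory receptors rise on any activated T cell and stay high when antigen persists. PD-1 recruits the phosphatase SHP-2 through its cytoplasmic tail after binding PD-L1 or PD-L2, LAG-3 binds MHC class II, and TIGIT competes with the activating receptor CD226 for CD155. TIM-3 binds galectin-9 and other ligands, CD160 binds HVEM, and 2B4 is the receptor of the SLAM family that binds CD48 and can activate or inhibit depending on its adaptors. Transcription of several of these genes is known to depend on NFAT, AP-1 and NR4A factors downstream of the T cell receptor.

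The genes lie on 5 chromosomes of the mouse genome (GRCm38): Pdcd1 at chr1:94038305-94052553 on the minus strand, Lag3 at chr6:124904361-124911705 (minus), Tigit at chr16:43648867-43664146 (minus), Havcr2 at chr11:46454935-46481255 (plus), Cd160 at chr3:96798763-96829351 (minus) and Cd244a at chr1:171559193-171609746 (plus). RefSeq upstream sequences (GRCm38.p6) were at hand for 5 of the 6 genes. There was none for Lag3, which fell with ibrutinib in repeat-stimulated cells. The 250 bases before the start site, 5′ to 3′ on the gene's strand, are shown for Pdcd1 and Tigit, which fell with ibrutinib in repeat-stimulated cells, and for Cd160, which did not pass the test there. Capitals mark the NFAT core GGAAA on either strand. Both matches in Pdcd1 stand side by side, 28 and 23 bases before the start, and those in Tigit lie 110 and 13 bases before its start. Start sites are those of RefSeq, which for Tigit and Havcr2 differ from the gene starts implied by the coordinates above.
Pdcd1, chr1:94052554-94052803, minus strand: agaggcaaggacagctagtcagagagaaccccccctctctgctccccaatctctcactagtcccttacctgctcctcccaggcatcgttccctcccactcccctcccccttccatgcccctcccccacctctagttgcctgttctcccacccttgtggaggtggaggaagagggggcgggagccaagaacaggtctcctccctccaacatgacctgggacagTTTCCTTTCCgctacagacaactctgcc
Tigit, chr16:43664185-43664434, minus strand: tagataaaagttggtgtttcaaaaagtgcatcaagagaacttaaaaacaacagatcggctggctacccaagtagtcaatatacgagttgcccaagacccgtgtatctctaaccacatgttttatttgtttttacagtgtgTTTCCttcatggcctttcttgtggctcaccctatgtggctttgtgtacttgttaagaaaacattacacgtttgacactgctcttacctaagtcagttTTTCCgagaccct
Cd160, chr3:96829352-96829601, minus strand: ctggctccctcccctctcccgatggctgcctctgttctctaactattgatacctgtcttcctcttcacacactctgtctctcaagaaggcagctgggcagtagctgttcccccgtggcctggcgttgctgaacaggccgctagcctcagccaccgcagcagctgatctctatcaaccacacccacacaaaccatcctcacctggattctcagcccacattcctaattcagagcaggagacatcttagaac
No NFAT core was found in this Cd160 window or in that of Havcr2. There was 1 match before the second listed start of Cd160, 145 bases upstream, and 1 in Cd244a, 204 bases upstream. The same letters were found in 55.6% of the 32851 RefSeq upstream windows of this length, so a match is common. The AP-1 site TGANTCA, held by 6.75% of all windows, occurred once in Havcr2, 200 bases before its start, and once in Cd244a, 122 bases before it. The NR4A site AAAGGTCA, held by 1.34% of all windows, was found in none of the windows of these 5 genes. All letters were searched on both strands, and matches of different motifs did not overlap.

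Levels of different receptors were compared only in TPM. In repeat DMSO cells the order of the group means was Pdcd1 (258 ± 37.7, SD, n = 4), Tigit (212 ± 32.5), Lag3 (207 ± 28.6), Cd160 (113 ± 18.2), Cd244a (6.25 ± 4.20) and Havcr2 (4.02 ± 1.12). The ranges of Pdcd1, Tigit and Lag3 overlapped, those of Lag3 and Cd160 did not, and those of Cd244a and Havcr2 did. Pdcd1 stood at the 96.4th percentile of mean TPM among tested genes and Havcr2 at the 24.9th. In single DMSO cells the order was different: Cd160 came first (35.9 ± 4.18, n = 5), apart from the rest, followed by Tigit (12.5 ± 4.21), Lag3 (9.09 ± 2.87) and Pdcd1 (3.75 ± 0.880), with Cd244a (0.520 ± 0.224) and Havcr2 (0.134 ± 0.113) last. Cd160 thus made up 51.6 to 66.2% of the 6 receptors' summed TPM in single DMSO libraries and 12.2 to 16.6% in repeat DMSO libraries, while Pdcd1 made up 4.71 to 7.75% and 27.7 to 40.0%. With ibrutinib, the means of Pdcd1, Lag3, Tigit and Cd160 in repeat cells stood at 108, 102, 95.7 and 93.4 TPM with overlapping ranges. The summed TPM of the 6 receptors was 769 to 813 in repeat DMSO, 287 to 478 in repeat ibrutinib, 49.8 to 74.2 in single DMSO and 22.95 to 43.2 in single ibrutinib libraries.

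**Figure D1:**
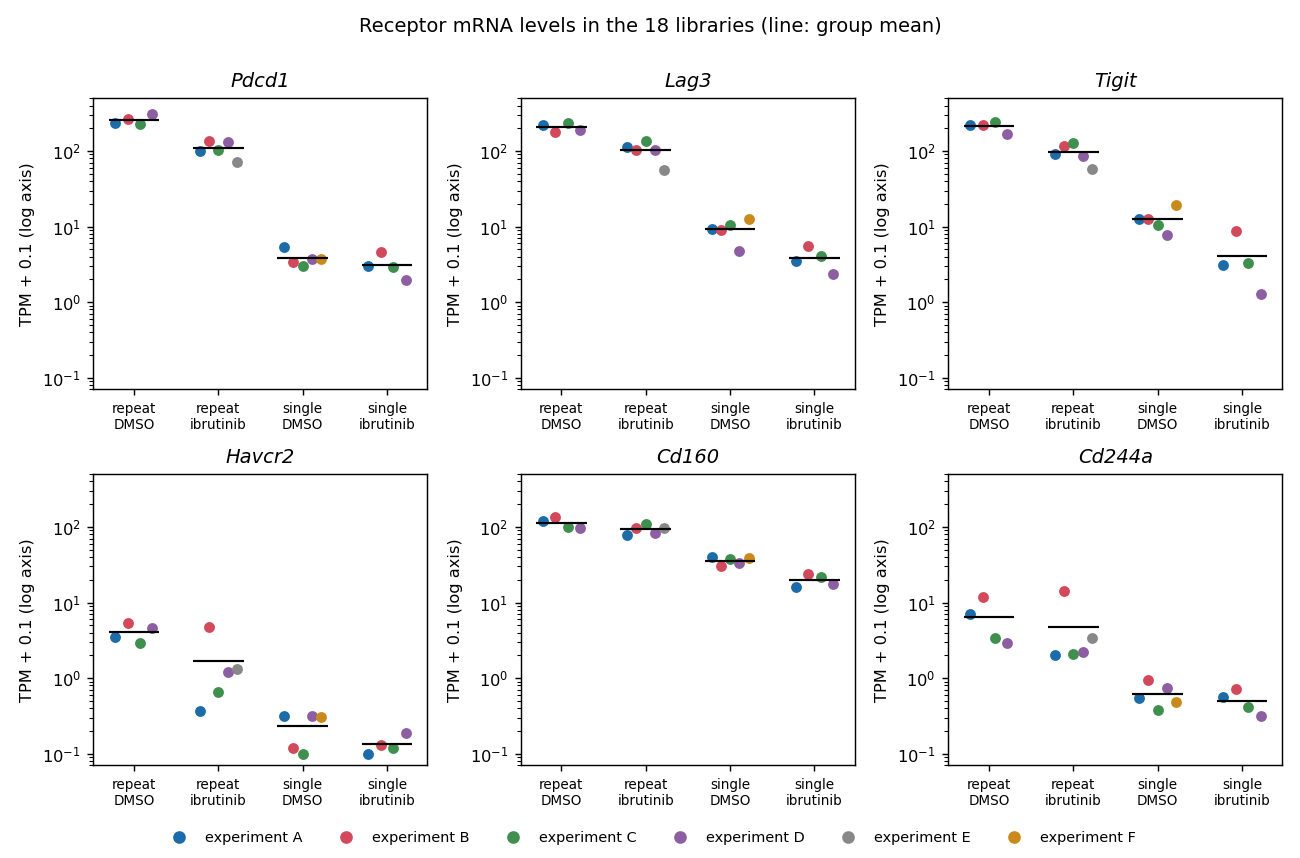
TPM + 0.1 of each receptor gene (log axis) in the 18 libraries, grouped by peptide and treatment; points are libraries coloured by experiment, lines are group means. Pdcd1, Lag3 and Tigit fall into separate repeat DMSO and repeat ibrutinib ranges, and Havcr2 and Cd244a are highest in experiment B among repeat ibrutinib libraries.

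The first comparison asked what repeat stimulation does to the 6 genes without the drug. All 6 were higher in repeat than in single DMSO cells, by 61.6-fold for Pdcd1, 20.3-fold for Lag3, 15.1-fold for Tigit, 27.0-fold for Havcr2, 14.6-fold for Cd244a and 2.67-fold for Cd160. A gene was called when the Benjamini-Hochberg adjusted p of edgeR's quasi-likelihood test was under 0.05, its normalized count averaged 50 or more over the libraries and its log2 fold change exceeded 0.2 in size. By this rule 22.8% of the 12255 tested genes were higher and 24.2% lower, so single calls are common in this comparison. The median log2 fold change over all tested genes was -0.0022.

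Pdcd1, the receptor of PD-L1 and PD-L2, was at 232, 266, 225 and 307 TPM in repeat DMSO libraries A to D and at 5.23, 3.34, 2.91, 3.59 and 3.66 TPM in single DMSO libraries A, B, C, D and F. Every repeat library thus lay far above every single library (log2 fold change 5.95, SE 0.20, adjusted p = 7.3e-13). Lag3, the MHC class II receptor, was at 223, 177, 238 and 189 TPM against 9.11, 8.79, 10.3, 4.67 and 12.5 TPM (4.34, SE 0.22, adjusted p = 9.7e-11). Tigit was at 219.8, 218, 245 and 167 TPM against 12.4, 12.6, 10.47, 7.69 and 19.1 TPM (3.92, SE 0.30, adjusted p = 7.8e-09). Within experiments the Tigit difference was nearly constant, at 4.02 to 4.16 log2 CPM (log2 of counts scaled to library size) in the 4 pairs, whereas that of Pdcd1 ranged from 5.34 to 6.30.

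Havcr2 and Cd244a rose from near the detection limit. Havcr2 was at 3.43, 5.29, 2.79 and 4.56 TPM in repeat DMSO libraries and at 0.22, 0.02, 0, 0.22 and 0.21 TPM in single DMSO libraries, where it had 0 to 17 expected counts. Its log2 fold change of 4.76 had an SE of 0.78 (adjusted p = 5.6e-05), the widest of the 6. Cd244a was at 6.97, 11.9, 3.33 and 2.79 TPM against 0.44, 0.84, 0.28, 0.65 and 0.39 TPM, again without overlap (3.86, SE 0.58, adjusted p = 2.5e-05). Cd160 started from a higher level and changed least: it was at 121, 135, 99.0 and 97.3 TPM against 40.05, 30.03, 37.85, 33.0 and 38.3 TPM (1.42, SE 0.19, adjusted p = 6.5e-06).

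**Figure D2:**
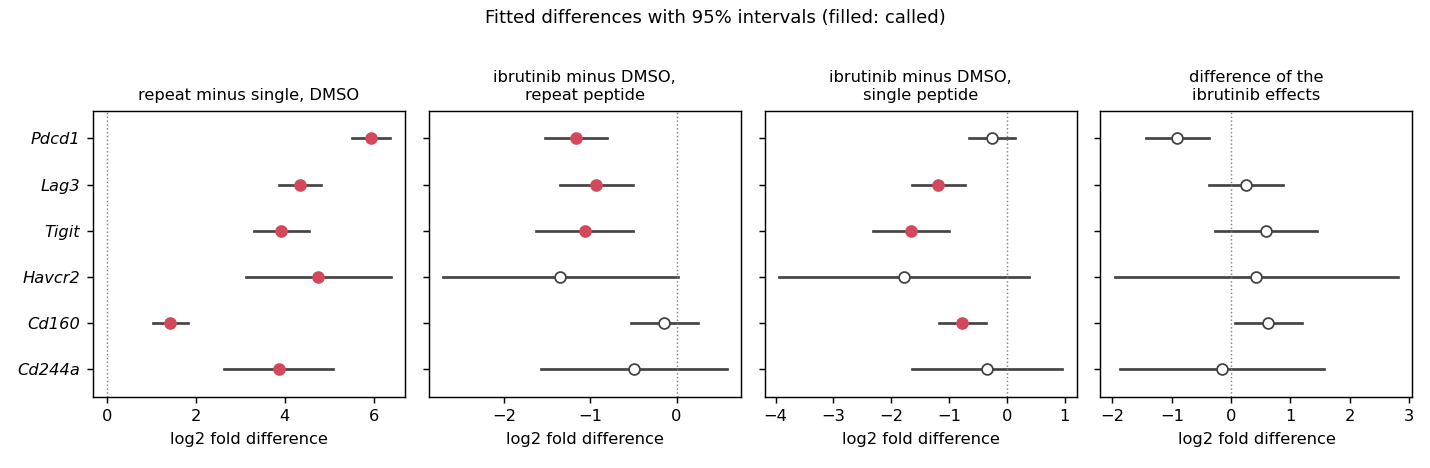
Fitted log2 fold differences of the 6 receptor genes (points) with 95% intervals (lines) for repeat against single DMSO cells, for the ibrutinib effect in repeat cells and in single cells, and the difference between the ibrutinib effects. Filled points passed the thresholds: all 6 in the first panel, 3 in each of the next panels and 0 in the last.

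The second comparison asked what ibrutinib does in repeat peptide cells. Pdcd1, Lag3 and Tigit fell by 2.25-fold, 1.91-fold and 2.10-fold. These 3 of the 6 genes were called lower, against 1.92% of all tested genes called lower and 4.01% called higher. In normalized counts the repeat ibrutinib libraries lay below all repeat DMSO libraries for the same 3 genes, and for 5.43% of all tested genes. Since these genes were chosen with results of this comparison known, the count describes them and is not a test of the set.

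With ibrutinib Pdcd1 was at 101, 135, 102, 131 and 72.1 TPM in repeat libraries A to E, each below the lowest DMSO library. Its log2 fold change was -1.17 (SE 0.17, 2.25-fold lower, adjusted p = 0.00041), and the 4 within-experiment differences were alike, from -1.24 to -1.02 log2 CPM. Lag3 was at 114, 102, 134, 104 and 55.3 TPM (-0.93, SE 0.20, 1.91-fold lower, adjusted p = 0.0089), with within-experiment differences of -1.03 to -0.71. Tigit was at 91.0, 116, 129, 85.4 and 57.2 TPM (-1.07, SE 0.27, 2.10-fold lower, adjusted p = 0.021), with within-experiment differences of -1.32 to -0.80. Experiment E, which had no DMSO partner, gave the lowest TPM of all 3 genes, whereas in normalized counts library A was lowest for Pdcd1 and Tigit. The Tigit call was lost when repeat DMSO library B or C or repeat ibrutinib library A or E was left out, with log2 fold changes between -1.19 and -0.99 and a highest adjusted p of 0.070 over all such fits, without any filter for low counts (adjusted p = 0.052), and in limma on log2(TPM + 0.1) (adjusted p = 0.11).

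The other 3 genes did not pass the test, each with a different picture. Havcr2 was at 0.27, 4.71, 0.56, 1.1 and 1.21 TPM in libraries A to E and was lower with ibrutinib in all 4 experiments, by 0.43 log2 CPM in B and by up to 3.45 in A. Its fitted difference of -1.35 (95% interval -2.71 to 0.015, adjusted p = 0.24) was too imprecise to be called, while limma on log2(TPM + 1) called it (adjusted p = 0.026). Cd244a was at 1.94, 14.2, 1.98, 2.11 and 3.34 TPM, overlapping the DMSO libraries (-0.50, interval -1.58 to 0.58, adjusted p = 0.62). Cd160 was at 78.1, 96.4, 111, 84.1 and 97.4 TPM, higher than DMSO in experiment C and lower in the other three (-0.14, interval -0.53 to 0.25, adjusted p = 0.71). The Cd160 interval leaves out a fall as large as that fitted for Pdcd1, Lag3 or Tigit, whereas those of Havcr2 and Cd244a do not.

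Experiment B stood apart for Havcr2 and Cd244a. Its repeat ibrutinib library had the highest value of both genes in its group, and its repeat DMSO library the highest in that group. Among NK and dendritic cell markers, Klrb1c was also highest in these libraries (11.3 TPM in repeat DMSO B and 25.2 TPM in repeat ibrutinib B, against 2.64 to 8.58 TPM in the other repeat libraries), as was Itgax in repeat ibrutinib B (4.08 TPM). The defining NK marker Ncr1 was at 1.16 TPM or less in all 18 libraries and at 0 in 7 of them. Of the other dendritic cell markers, Zbtb46 reached 2.31 TPM at most, and Flt3, Xcr1, Clec9a and Siglech did not exceed 0.11 TPM in any library. The part of other cells in the result was not tested. Without the 4 libraries of experiment B, a setting chosen after seeing the data, the ibrutinib difference in repeat cells was -1.89 for Havcr2 (adjusted p = 0.14), -0.85 for Cd244a (adjusted p = 0.21) and 0.054 for Cd160 (adjusted p = 0.92). Without repeat DMSO library B alone, Cd244a came to 0.033 and Cd160 to 0.011.

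**Figure D3:**
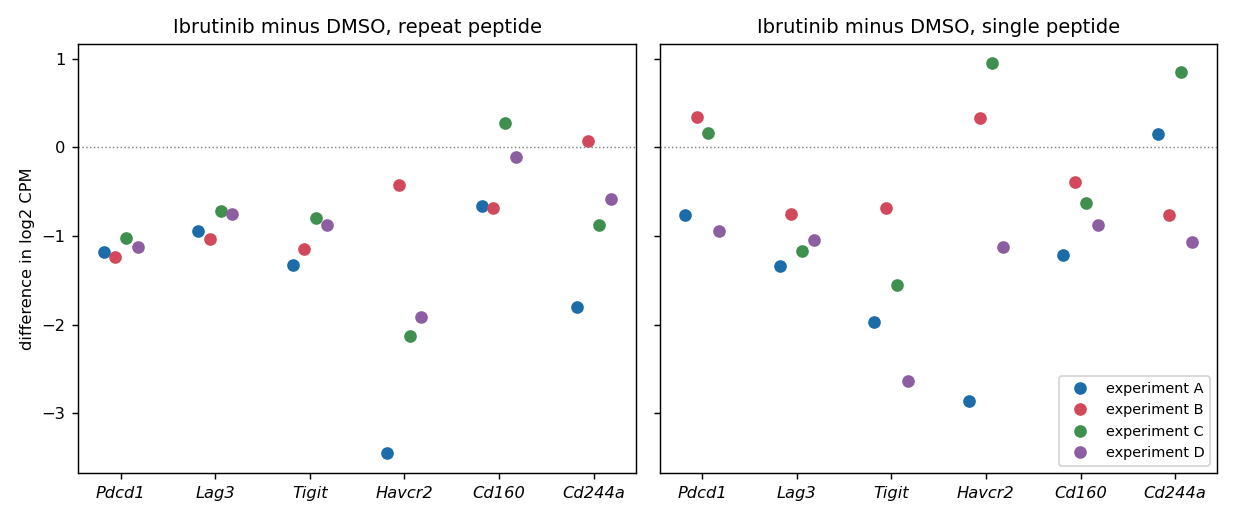
Difference in log2 CPM between the ibrutinib and the DMSO library of the same experiment (A to D) for each receptor gene, in repeat peptide (left) and single peptide cells (right). All 4 points of Pdcd1, Lag3, Tigit and Havcr2 lie below 0 on the left, and all 4 of Lag3, Tigit and Cd160 on the right.

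In single peptide cells, where all 6 genes started lower than in repeat cells, ibrutinib was followed by lower Lag3, Tigit and Cd160. These 3 of 6 genes were called lower, against 2.69% of all tested genes called lower and 0.351% called higher. Lag3 was at 3.38, 5.50, 3.93 and 2.25 TPM in single ibrutinib libraries A to D (-1.18, SE 0.22, 2.27-fold lower, adjusted p = 0.0070). Tigit was at 2.98, 8.77, 3.15 and 1.18 TPM (-1.66, SE 0.31, 3.16-fold lower, adjusted p = 0.0070) and Cd160 at 16.2, 23.85, 21.8 and 17.35 TPM (-0.77, SE 0.19, 1.71-fold lower, adjusted p = 0.034). In normalized counts the ibrutinib libraries of these 3 genes lay below all DMSO libraries, as for 3.42% of all tested genes. In TPM the groups of Lag3 and Tigit touched, since the ibrutinib library of experiment B (5.50 and 8.77) was above the DMSO library of experiment D (4.67 and 7.69), while those of Cd160 stayed apart.

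The Tigit call was lost when only the single peptide libraries were fitted (adjusted p = 0.066). The Cd160 call was near the threshold: it was lost without single DMSO library A, C, D or F and without single ibrutinib library A, B or D, with log2 fold changes of -0.90 to -0.65 and adjusted p values up to 0.14, and without experiment B (-0.85, adjusted p = 0.067). With experiment as a block, which compares libraries within experiments, Cd160 was called (-0.78, adjusted p = 0.0070). Pdcd1 was at 2.89, 4.48, 2.80 and 1.86 TPM, and its log2 CPM was higher with ibrutinib in experiments B and C and lower in A and D (-0.26, 95% interval -0.66 to 0.14, adjusted p = 0.63). Havcr2 had 0 to 6 expected counts with ibrutinib, which is too few to show a difference, and Cd244a was at 0.47, 0.61, 0.32 and 0.22 TPM (-0.34, interval -1.65 to 0.96, adjusted p = 0.89).

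Whether the ibrutinib effect differed between repeat and single cells was tested by the interaction, for which 1.26% of all tested genes were called and 0 of the 6 receptors. The closest was Pdcd1, whose fall in repeat cells was larger than in single cells by 0.91 on the log2 scale (interaction -0.91, 95% interval -1.44 to -0.37, unadjusted p = 0.0021, adjusted p = 0.099). DESeq2 called it (-0.89, adjusted p = 0.036), with the block it was not called (-0.86, adjusted p = 0.069), and without experiment B it was smaller (-0.67, adjusted p = 0.43). For Cd160 the interaction had the opposite sign (0.63, interval 0.07 to 1.19, unadjusted p = 0.030, adjusted p = 0.36). These were the 2 genes with an unadjusted p under 0.05. The intervals of Lag3 (-0.37 to 0.87) and Tigit (-0.26 to 1.44) allow differences of either sign, and those of Havcr2 (-1.96 to 2.82) and Cd244a (-1.87 to 1.56) allow large ones.

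The treated repeat cells still stood above single cells. Against single DMSO cells all 6 genes were called higher, where 16.7% of all tested genes were, with log2 fold changes of 4.78 for Pdcd1, 3.41 for Lag3, 2.85 for Tigit, 3.41 for Havcr2, 1.28 for Cd160 and 3.37 for Cd244a. In normalized counts the lowest repeat ibrutinib library exceeded the highest single DMSO library for 5 of them, as for 11.6% of all tested genes. Havcr2 overlapped on that scale, though not in TPM (0.27 against 0.22), and its mean count fell under 50 when only these groups were fitted. The differences between repeat and single DMSO cells, which share the single DMSO libraries, were 5.95, 4.34, 3.92, 4.76, 1.42 and 3.86 in the same order. With the drug in both, all 6 genes were again higher in repeat cells, where 18.7% of tested genes were, by 5.04 (Pdcd1), 4.60 (Lag3), 4.51 (Tigit), 5.18 (Havcr2), 2.05 (Cd160) and 3.71 (Cd244a) on the log2 scale.

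The ligands of these receptors are partly made by T cells themselves. Of 16 ligand genes 12 were tested, and 4 were called higher and 3 lower in repeat than in single DMSO cells (median log2 fold change -0.0084), against 22.8% and 24.2% of all tested genes. H2-Ab1, a chain of MHC class II and so of the LAG-3 ligand, had the largest rise (5.63, SE 0.59, adjusted p = 4.4e-07), from 0.280 to 0.830 TPM in single to 9.42 to 37.5 TPM in repeat DMSO libraries. H2-Eb1, another MHC class II chain, named here after its values were seen, showed no such rise. It was at 0 to 1.09 TPM in single and 0 to 0.55 TPM in repeat DMSO libraries. Which cells in the bulk libraries made the H2-Ab1 RNA was not tested. Tnfrsf14, which encodes the CD160 ligand HVEM, had the largest fall (-1.57, SE 0.14, adjusted p = 5.6e-08), from 48.5 ± 10.6 to 19.8 ± 6.84 TPM (SD, n = 5 and 4). The ligands of PD-1 went opposite ways. Cd274, encoding PD-L1, was lower in repeat cells (-0.65, adjusted p = 0.00037), a call not made by limma on log2 TPM (highest adjusted p 0.14). Pdcd1lg2, encoding PD-L2 and named here after its values were seen, was higher (5.16, SE 0.38, adjusted p = 7.0e-09), at 10.4 to 12.05 TPM in repeat and 0.10 to 0.57 TPM in single DMSO libraries. Cd48, the 2B4 ligand, was lower in repeat cells (-0.54, adjusted p = 0.026). Pvr, encoding CD155, was higher (0.44, adjusted p = 0.030), and Lgals9, encoding galectin-9, was not called (-0.18, adjusted p = 0.13). The calls of Cd48 and Pvr were near the threshold, and each was lost without repeat DMSO library A, C or D and without single DMSO library D, that of Pvr also without single DMSO library A, B or C (highest adjusted p 0.091 and 0.10).

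With ibrutinib 1 ligand gene was called higher and 0 lower in repeat cells, against 4.01% and 1.92% of all tested genes (median 0.15 over the 12, 0.0045 over all). This was Tnfrsf14 (0.70, SE 0.14, adjusted p = 0.0044), at 30.1 ± 11.1 TPM with the drug, and limma on log2 TPM did not call it (highest adjusted p 0.28). Cd48 stood at 228 ± 23.02 against 160 ± 16.1 TPM without being called (0.63, adjusted p = 0.057), and Pdcd1lg2 at 5.48 ± 1.02 against 11.2 ± 0.783 TPM (-0.91, adjusted p = 0.089), without overlap of the libraries. Cd274 (0.37, adjusted p = 0.095), Pvr (-0.24, adjusted p = 0.43) and Lgals9 (-0.08, adjusted p = 0.69) were not called either. With experiment as a block, Cd48 (0.49, adjusted p = 0.035), Cd274 (0.44, adjusted p = 0.015) and Pdcd1lg2 (-1.04, adjusted p = 0.014) were called, as was Lgals3, a LAG-3 ligand (0.59, adjusted p = 0.031). In single cells 0 ligand genes were called higher and 1 lower (median -0.30), against 0.351% and 2.69% of all tested genes. Cd274 fell from 13.7 ± 3.32 to 6.99 ± 1.5 TPM (-0.88, SE 0.13, adjusted p = 0.0018), and its ibrutinib effects in repeat and single cells differed (interaction 1.25, SE 0.18, adjusted p = 0.0013). Limma on log2 TPM called neither the Cd274 fall nor its interaction.

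**Figure D4:**
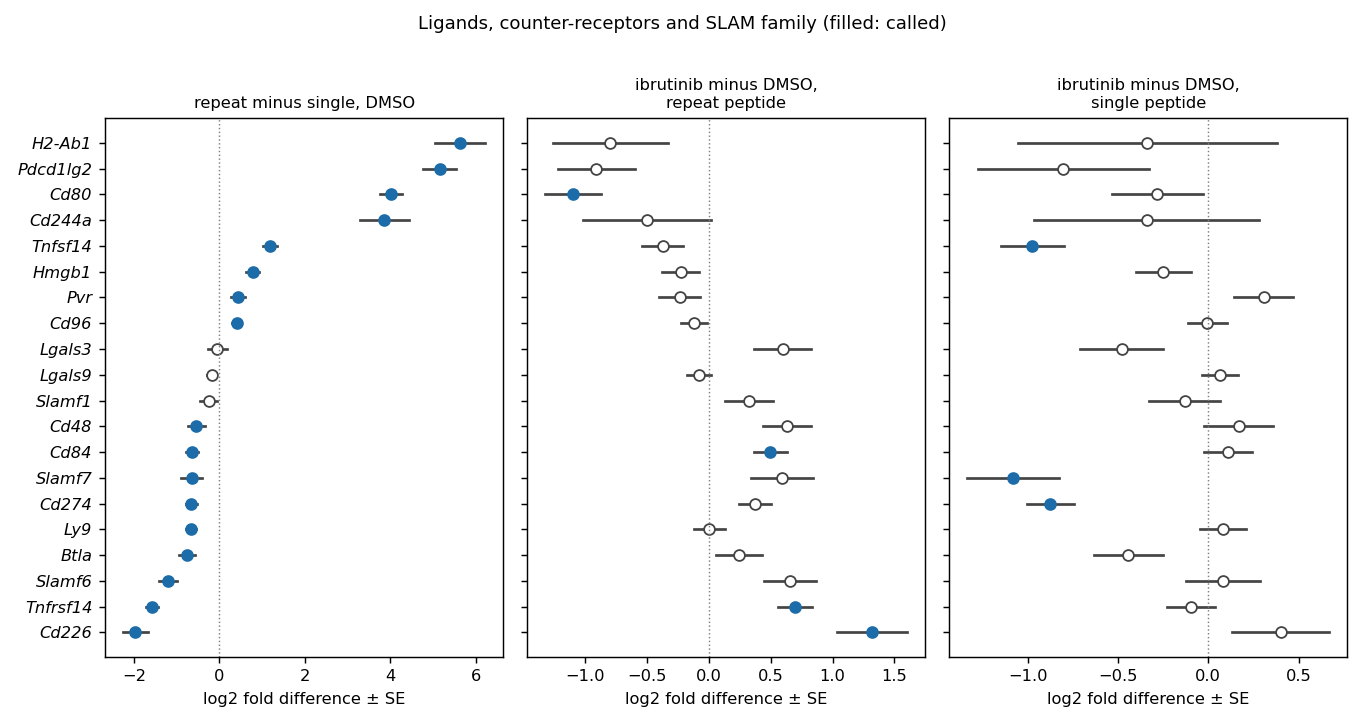
Fitted log2 fold differences ± SE of the ligand, counter-receptor and SLAM family genes with a mean normalized count of at least 50, ordered by the difference between repeat and single DMSO cells; filled points were called. Cd226 and Tnfrsf14, lowest in the first panel, are the highest and next highest in the second, and Cd80, high in the first, is lowest in the second.

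Receptors that share these ligands were examined next. Of 6 genes 5 were tested, and 3 were called higher and 2 lower in repeat DMSO cells (median 0.40), where 22.8% and 24.2% of all tested genes were. Cd80, which binds PD-L1 on the same cell, rose from 2.79 ± 0.919 to 51.8 ± 11.02 TPM (4.01, SE 0.25, adjusted p = 1.1e-09), and Cd226, the activating competitor of TIGIT, fell from 29.2 ± 6.78 to 9.04 ± 5.91 TPM (-1.96, SE 0.29, adjusted p = 2.1e-05). With ibrutinib in repeat cells Cd226 was higher, at 19.6 ± 3.99 TPM (1.32, SE 0.28, adjusted p = 0.0087), and Cd80 was lower, at 23 ± 6.87 TPM (-1.096, SE 0.23, adjusted p = 0.0064). These were the 2 genes called (median -0.12), against 4.01% of all tested genes called higher and 1.92% lower. The Cd226 call was lost when only the repeat libraries were fitted (adjusted p = 0.051). In single cells only Tnfsf14 was called of the 5, which encodes LIGHT, another HVEM ligand (-0.97, SE 0.18, adjusted p = 0.0061, median -0.28). There 2.69% of all tested genes were called lower and 0.351% higher. Cd4, the relative of Lag3 that also binds MHC class II, had 0 to 2 expected counts and was not tested.

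Among 11 genes for signalling partners of the receptor tails, 10 were tested, of which 1 was called higher and 3 lower in repeat DMSO cells (median -0.03), against 22.8% and 24.2% of all tested genes. Ptpn6, encoding the phosphatase SHP-1, was higher (0.87, SE 0.10, adjusted p = 1.5e-06), and Fyn, a Src family kinase, had the largest fall (-0.44, SE 0.10, adjusted p = 0.0016), which limma on log2 TPM did not call. Ptpn6 was also the only one of the 10 called with ibrutinib, in repeat cells (-0.48, SE 0.10, adjusted p = 0.0071, median of the list -0.05) and in single cells (-0.68, SE 0.10, adjusted p = 0.0018, median 0.02). Of all tested genes 1.92% were called lower with ibrutinib in repeat and 2.69% in single cells. Ptpn6 went from 381 ± 10.9 to 258 ± 45.3 TPM in repeat and from 186 ± 20.4 to 109.9 ± 17.6 TPM in single cells. The call in repeat cells was lost without experiment B (highest adjusted p over all alternatives 0.075). Ptpn11, encoding SHP-2, was called in neither comparison.

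Cd244a was the only rising gene among 7 tested members of the SLAM family of 9. Of the others 5 were called lower in repeat DMSO cells (median -0.64), against 24.2% of all tested genes, with the largest fall for Slamf6 (-1.20, SE 0.21, adjusted p = 0.00013), a receptor kept by progenitor-like cells. Of these 5 calls, that of Slamf7 was lost in 10 of 30 alternatives, that of Cd48 in 5 and that of Cd84 in 3. In repeat cells Cd84 was higher with ibrutinib (0.50, SE 0.13, adjusted p = 0.033, median of the list 0.50), a call lost in 10 of 30 alternatives, among them those without repeat DMSO library B, C or D, repeat ibrutinib library A or E, or experiment B (highest adjusted p 0.29). With the block Slamf6 (0.67, adjusted p = 0.0053), Slamf7 (0.57, adjusted p = 0.013) and Cd48 were called as well. In single cells Slamf7 was lower with ibrutinib (-1.08, SE 0.25, adjusted p = 0.025, median 0.08), and its interaction was called too (1.67, SE 0.36, adjusted p = 0.023). Of all tested genes 4.01% were called higher with ibrutinib in repeat cells, 2.69% lower in single cells and 1.26% in the interaction. The Slamf7 call in single cells was lost without single DMSO library D or single ibrutinib library A, C or D (highest adjusted p 0.11).

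All 19 transcription factor genes known to act on these receptors were tested. In repeat DMSO cells 8 were called higher and 7 lower (median of the list 0.40), where 22.8% and 24.2% of all tested genes were. The rises were led by Nr4a2 (4.27, SE 0.17, adjusted p = 5.1e-12) and the falls by Maf (-3.94, SE 0.74, adjusted p = 0.00023). Maf was low, at 0.03 to 0.26 TPM in repeat and 0.17 to 2.27 TPM in single DMSO libraries, with overlapping ranges. With ibrutinib 3 of the 19 were higher and 7 lower in repeat cells, against 4.01% and 1.92% of all tested genes (median -0.09), the extremes being Jun (1.32, SE 0.31, adjusted p = 0.015), an AP-1 subunit, and Prdm1 (-1.50, SE 0.35, adjusted p = 0.013), encoding BLIMP-1. Both calls were lost without repeat DMSO library D, and that of Jun also without experiment B (highest adjusted p over all alternatives 0.092 and 0.056). In single cells 4 were lower and 0 higher (median -0.18), against 2.69% and 0.351% of all tested genes. The largest fall was that of Nr4a3 (-1.73, SE 0.25, adjusted p = 0.0018). With experiment as a block, Tbx21 (-0.64, adjusted p = 0.0014) and Tox (-0.64, adjusted p = 0.011) were also called lower in single cells. Foxo1 was then called higher (0.36, adjusted p = 0.018). The interaction was called for Eomes alone (2.56, SE 0.62, adjusted p = 0.047), and in 11 of 29 alternatives. With the block it was not called (2.25, adjusted p = 0.081). The block instead called the interaction of Jun (1.84, adjusted p = 0.0033), Tbx21, Tcf7 and Nfatc2, and in repeat cells it added the ibrutinib effect on Maf (2.04, adjusted p = 0.021) and Nfatc2 (0.33, adjusted p = 0.013). Maf stayed low there, at 0.15 to 0.62 TPM in repeat ibrutinib libraries.

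Genes whose pattern over the 18 libraries was most like that of a receptor were found by the root mean square difference of standardised log2 CPM, for which 0 means the same pattern and the median gene was 1.38 to 1.40 away. Nearest to Pdcd1 were Galnt3 (0.11), Nrgn (0.14) and Jam2 (0.15). Nearest to Lag3 were Nr4a2 (0.086), St14 (0.11) and Bspry (0.12), and nearest to Tigit were Egr3 (0.16), Arhgef25 (0.19) and again Nr4a2 (0.19). Among the receptors, Lag3 and Tigit were closest to each other (0.17), followed by Pdcd1 and Lag3 (0.21), and Cd160 and Cd244a were farthest apart (0.51). Havcr2 had no gene as near, with Slc37a2 (0.27), Gcnt1 (0.36) and C1qtnf6 (0.37). Cd160 was nearest to Xcl1 (0.25), Klra3 (0.26), of a family whose members share sequence, and Ccl4 (0.27), and Cd244a to Lat2 (0.24), Mtmr1 (0.26) and Lyn (0.28). All points share libraries and the split into repeat and single cells, so these distances are a description.

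Genes starting within 100 kb of a receptor were examined next. No neighbour of Pdcd1 or Tigit was tested. Of 9 tested neighbours of Lag3 among 13 annotated, 5 were called higher and 0 lower in repeat than in single DMSO cells, where 22.8% and 24.2% of all tested genes were, with log2 fold changes from -0.05 to 6.34, the latter for a gene of low count. With ibrutinib in repeat cells they ranged from -1.61 to -0.07, and 1 was called, Tpi1, a glycolytic enzyme gene 97.4 kb away (-0.96, adjusted p = 0.034). In that comparison 1.92% of all tested genes were called lower and 4.01% higher. The 3 tested neighbours of Havcr2 (-0.71 to 0.36), 2 of Cd160 (-0.38 to -0.21) and 4 of Cd244a (0.0024 to 0.59) had 0 called with ibrutinib. Between repeat and single DMSO cells 1 was higher and 2 lower near Havcr2, 1 and 0 near Cd160, and 0 and 2 near Cd244a.

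The mean transcript length that accompanies each gene, weighted by the estimated share of its isoforms, served as a readout that did not enter the choice of genes. Pdcd1 and Tigit are listed with 1 transcript each, so their length cannot vary, Lag3 and Havcr2 with 2, Cd160 with 3 and Cd244a with 4. Over the 8929 genes whose length varied, limma called 1.29% between repeat and single DMSO cells, and none of the 4 receptors in any of the 5 comparisons of groups. The largest difference was that of Cd244a, whose mean length was 2852 to 3312 bases in repeat and 1871 to 3265 bases in single DMSO libraries (0.43 on the log2 scale, SE 0.14, unadjusted p = 0.0067, adjusted p = 0.14). In single DMSO libraries this rests on 11 to 41 expected counts, and the high value came from library F. With experiment as a block, which drops library F, it was called (0.56, adjusted p = 0.037), as it was when F alone was left out (adjusted p = 0.024). The exact permutation test gave p = 0.063 for Cd244a (two-sided, unadjusted). For Cd160, whose length differed by -0.04 on the log2 scale between repeat and single DMSO cells, the exact test gave p = 0.016, and it was under 0.05 as well for Cd160 in both comparisons of repeat ibrutinib with single cells and for Havcr2 in that with single ibrutinib cells (p = 0.032 each). A library without Havcr2 counts is listed with a length all the same, which is no measurement. The Havcr2 test included 1 such library, and the single ibrutinib libraries held only 0 to 6 expected counts of that gene. In bulk RNA, fewer cells that express a receptor and less of its RNA per cell cannot be told apart in any of these comparisons.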

How the data were processed

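RNA-seq of 18 libraries was analysed. The authors trimmed the reads with Trim Galore, mapped and quantified them with RSEM 1.3.1, using STAR, on GRCm38 with an Ensembl annotation, and deposited a gene table for every library. Expected counts in it are reads per gene as estimated by the authors, without normalization. The authors also deposited TPM, which takes out transcript length and gives every library the same total. The other deposited columns used are the mean and the effective transcript length in bases. Of the 45706 genes listed, 45143 matched GENCODE M21 by identifier, which gave names, positions and the 27903 protein-coding and lncRNA genes kept.

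Expected counts were rounded; all 108 values of the 6 receptor genes were already whole within 0.001. Genes passing filterByExpr (12255) were normalized by TMM and fitted over the 4 groups in a single model with edgeR 4.0.16 (glmQLFit, robust; glmQLFTest) in R 4.3.3, with p-values adjusted over all of them. Calls needed an adjusted p under 0.05, 50 or more normalized counts on average and a log2 fold change beyond 0.2 in either direction. Log2 CPM used a prior count of 2. Mean transcript lengths were compared with limma 3.58.1. Alternatives used DESeq2 1.42.0, limma on log2(TPM + 1) or log2(TPM + 0.1), other filters and libraries left out in turn. Scripts were tested on simulated data.

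Libraries were grouped by their titles. Deviations from group means correlated at 0.16 to 0.49 (median 0.33) in each of the 24 pairs that share an experiment. The 97 other pairs across groups lay at -0.44 to 0.40 (median -0.08), so the ranges overlap. On the difference of the medians, experiments were taken to pair the libraries. They were added as a block in an alternative, in which experiments E and F carry no weight. No 2 libraries of a group agreed within sampling noise. The 6 genes, the gene lists and the tests were chosen with earlier results of these data known. Named were the 6 receptors, from each list and comparison the called gene with the largest rise and fall, the ligands Cd274, Pvr, Lgals9, Cd48 and Tnfrsf14, Cd4, the 3 genes most like each receptor, and neighbours within 100 kb by count, with those called with ibrutinib in repeat cells. Some genes are not reported here.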

Additional observations from a re-analysis of the deposited data

Results flagged for a closer look

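In repeat ibrutinib cells, the library of experiment B lay far from the other 4 for Cd244a (14.2 TPM, the next highest being 3.34) and for Havcr2 (4.71 TPM, the next highest being 1.21). These were 2 of 24 sets of libraries examined, of which chance flags about 1 in 20, and both come from the same library. Its depth was within the range of the other libraries, and why it is high for these genes was not tested.

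The ibrutinib effect differed between repeat and single cells, by the edgeR interaction test on the log2 scale, for 4 genes of the lists: Cd274 (1.25, adjusted p = 0.0013), Tnfrsf14 (0.79, adjusted p = 0.046), Slamf7 (1.67, adjusted p = 0.023) and Eomes (2.56, adjusted p = 0.047). By the same test 1.26% of all tested genes were called. Cd274 was called in 27 of 29 alternatives, Slamf7 in 24, and Tnfrsf14 and Eomes in 11 each.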

How the results depend on the processing

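With 1 library left out, a call of a receptor was lost 11 times, 4 times for Tigit with ibrutinib in repeat cells and 7 times for Cd160 in single cells. Under the other settings 7 calls were lost and 2 gained, among them the interaction of Pdcd1, where DESeq2 called 1 receptor (0 in edgeR). Signs turned only for differences that were not called: with 1 library left out, the repeat ibrutinib difference ranged from -0.29 to 0.011 for Cd160 and from -1.37 to 0.033 for Cd244a, and the interaction from -1.02 to 0.39 for Cd244a and from -0.31 to 1.33 for Havcr2. The Havcr2 interaction was -1.03 and -1.16 with limma on log2(TPM + 1) and log2(TPM + 0.1), and -0.063 with the block, and the Cd160 difference was 0.054 without experiment B, chosen after seeing the data. The block changed no call of a receptor on counts. Over the 5 comparisons of transcript length, 0 differences were called, 1 with the block, 0 to 1 with 1 library left out (both Cd244a) and 4 by unadjusted exact permutation tests (3 for Cd160 and 1 for Havcr2). That Havcr2 test included a library without Havcr2 counts. The block moved the called list genes from 15 to 23 with ibrutinib in repeat cells and from 4 to 8 in the interaction. At 0 to 17 counts per single library, Havcr2 could not show an effect of ibrutinib there. The causes of these shifts were not tested.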
